A study of Mus musculus with 12 samples.

Results

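The genes described here are 41 genes of DNA replication and mitosis, taken by symbol from the table of raw read counts of lung tumours from a mouse model of small cell lung cancer. All 41 had a row among the 22738 gene rows, and all 41 were among the 17426 genes that passed a filter on low counts. They form 2 sets: 20 genes of origin licensing, the replication fork, nucleotide supply and the G1/S transition, called replication genes below, and 21 genes of mitotic entry, the spindle checkpoint, the kinetochore and chromosome structure, called mitosis genes below. The study measured poly(A) RNA of whole tumours after treatment with the class I histone deacetylase inhibitor entinostat, an antibody to the T cell checkpoint receptor PD-1, or both.

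The tumours carried the genotype written Rb1/Trp53/MycT58A, abbreviated RPM. In these mice both copies of Rb1 and of p53 are floxed and a MycT58A allele is silent until Cre removes a stop cassette. Cre came from an adenovirus, Ad5CGRP-Cre, put into the trachea at 8 weeks of age, whose Cgrp (Calca) promoter limits it mainly to neuroendocrine cells of the airway. Every group, controls included, therefore shared the loss of Rb1 and p53 and the MYC variant in the tumour cells. No source used here gives the age of the mice at collection. There were 4 groups of 3 libraries. The anti-PD-1 group received 10 mg/kg into the peritoneum over 4 weeks and the entinostat group 15 mg/kg by mouth each day for 28 days. The combination group received both agents; its titles name both, although its treatment tag names only the antibody, and the titles were followed. Controls were labelled only Ctrl, and which of them had methylcellulose vehicle and which the isotype antibody is not given per library. All 12 libraries carry the same batch label, 2. Each library has a number of its own in the labels, but nothing says that it marks a mouse, so the p-values measure the spread between these libraries.

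Replication genes are switched on in late G1 and S phase, when E2F transcription factors are released from the RB protein; their products load the MCM helicase on origins, build the fork and supply nucleotides. Mitosis genes rise later, in G2, under complexes that contain MuvB proteins with B-MYB and FOXM1, and their products drive entry into mitosis, hold the spindle checkpoint and pull chromosomes apart. Small cell lung cancer lacks RB almost throughout and is among the most rapidly dividing tumours, so both programs are usually high in it. In whole tumour RNA, fewer dividing cells and less RNA of these genes per cell cannot be told apart.

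The promoters of the 2 sets differed in sequence. They are shown because the short elements in them are the ones through which E2F factors (the E2F element), MuvB complexes (the cell cycle genes homology region, CHR) and NF-Y (the CCAAT box) are known to act. The sequences are the 200 bases upstream of the RefSeq start, build GRCm38.p6, 5′ to 3′ on the gene's own strand, with element matches on either strand in capitals. Pcna (chr2:132253181-132253380, minus strand) encodes the sliding clamp, Mcm2 (chr6:88898781-88898980, minus strand) and Mcm6 (chr1:128359706-128359905, minus strand) helicase subunits. Ube2c (chr2:164769729-164769928, plus strand) encodes the ubiquitin-conjugating enzyme of the anaphase-promoting complex, Cdk1 (chr10:69352913-69353112, minus strand) the mitotic kinase and Top2a (chr11:99024190-99024389, minus strand) topoisomerase II alpha. Mcm6 and Top2a were added after the element counts and levels were seen, as a promoter rich in E2F matches and as the mitosis gene with the highest mean log2 count level over the libraries, neither of which passed the test for entinostat.
Pcna: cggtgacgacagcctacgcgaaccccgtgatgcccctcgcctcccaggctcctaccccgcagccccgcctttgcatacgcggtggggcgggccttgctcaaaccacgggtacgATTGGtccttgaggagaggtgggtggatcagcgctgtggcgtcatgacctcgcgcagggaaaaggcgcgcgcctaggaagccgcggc
Mcm2: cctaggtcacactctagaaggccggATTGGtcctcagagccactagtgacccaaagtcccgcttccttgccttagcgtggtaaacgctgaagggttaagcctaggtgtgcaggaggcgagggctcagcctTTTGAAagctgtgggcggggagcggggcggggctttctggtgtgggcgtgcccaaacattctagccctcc
Mcm6: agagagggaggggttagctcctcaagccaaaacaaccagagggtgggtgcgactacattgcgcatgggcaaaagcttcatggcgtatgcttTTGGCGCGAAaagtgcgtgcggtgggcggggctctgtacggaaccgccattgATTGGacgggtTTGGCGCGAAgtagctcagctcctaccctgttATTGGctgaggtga
Ube2c: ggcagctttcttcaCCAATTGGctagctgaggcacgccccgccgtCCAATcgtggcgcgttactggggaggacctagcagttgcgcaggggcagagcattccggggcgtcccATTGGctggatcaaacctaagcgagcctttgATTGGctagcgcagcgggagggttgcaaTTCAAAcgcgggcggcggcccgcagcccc
Cdk1: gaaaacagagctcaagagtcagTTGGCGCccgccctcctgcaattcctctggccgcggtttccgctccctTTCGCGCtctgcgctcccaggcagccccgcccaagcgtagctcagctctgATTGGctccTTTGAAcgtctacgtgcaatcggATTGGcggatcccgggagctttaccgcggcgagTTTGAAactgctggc
Top2a: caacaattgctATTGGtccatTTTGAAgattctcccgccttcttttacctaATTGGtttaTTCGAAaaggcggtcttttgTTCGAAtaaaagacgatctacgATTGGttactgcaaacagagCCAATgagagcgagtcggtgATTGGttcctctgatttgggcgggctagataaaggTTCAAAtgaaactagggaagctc

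Matches were counted over the whole RefSeq window of 300 bases, 250 before to 50 after the start, for the 15 replication genes (16 windows) and 17 mitosis genes (17 windows) that have an entry. The words were TTCCCGC and TTCGCGC with TTGCCGC and TTGGCGC for E2F, TTTGAA and TTCGAA for CHR, and CCAAT, each on both strands; matches of different words may share bases, as in the TTGGCGCGAA of the Mcm6 promoter. An E2F word was present in 11 of 16 windows of replication genes (68.8%), in 3 of 17 windows of mitosis genes (17.6%) and in 9.57% of all 32851 windows. The CHR words showed the opposite order, with 2 of 16 windows (12.5%), 13 of 17 windows (76.5%) and 19.2% of all windows. CCAAT was frequent in both sets, in 11 of 16 windows (68.8%) and 15 of 17 windows (88.2%), against 37.4% of all windows. All 13 mitosis genes with a CHR word also had CCAAT, whereas 9 of the 15 replication genes had an E2F word and no CHR word. Pcna held only CCAAT, Mcm2 a CHR word with CCAAT, and Cdk1 all 3 kinds of element. A match is a run of letters and was not measured as a bound site.

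**Figure D1:**
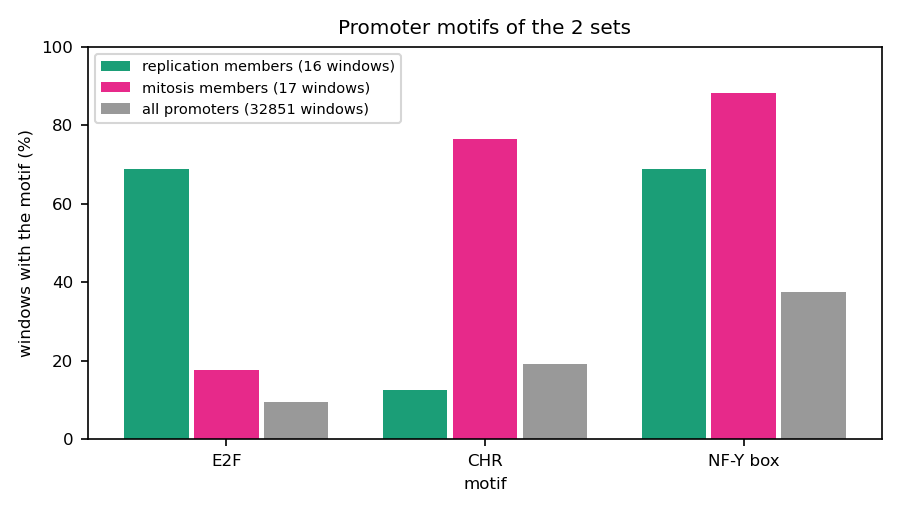
Share of promoter windows (percent, y axis) with an E2F word, a CHR word or CCAAT (labelled as the NF-Y box, x axis) in replication genes (16 windows), mitosis genes (17 windows) and all 32851 windows. E2F words stand at 68.8% in the replication genes and CHR words at 76.5% in the mitosis genes, each above the 9.57% and 19.2% of all windows.

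Library totals ran from 31295987 to 54001886 counts, highest in the controls (40534618 to 54001886), and the lowest count of any of the 41 genes in any library was 460, in Gins1. Libraries of 1 group differed by more than counting noise. Values are given as counts per 1000000 (CPM) scaled with TMM factors, which adjust for differences in RNA composition. Adjusted p-values come from edgeR's quasi-likelihood test with Benjamini-Hochberg adjustment over all 17426 genes, and a gene is said to fall or rise only at an adjusted p under 0.05. The 14 neuroendocrine markers were detected in every library. Their summed level was 1260 to 2170 CPM in controls, 962 to 1510 with anti-PD-1, 735 to 1250 with entinostat and 580 to 1130 with the combination. The structural RNAs Rpph1, Rn45s and Rmrp together took 7.84% to 13.2% of control counts and 15.2% to 36.4% in the treated groups; with them removed the counts of called genes below were the same.

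The first question was how the 41 genes differed between the 6 libraries with entinostat and the 6 without, taken as the mean of the entinostat effects with and without the antibody. Of the 41 genes, 13 fell and 0 rose (edgeR's quasi-likelihood test). Over all tested genes 6.74% fell and 3.87% rose. The 13 were 5 of 20 replication genes (Mcm2, Gins1, Gins2, Pcna and Ccne2) and 8 of 21 mitosis genes (Cdk1, Ccnb2, Aurka, Mad2l1, Cenpa, Birc5, Cdc20 and Ube2c). The median log2 fold change was -0.27 in the replication genes and -0.34 in the mitosis genes, against 0.02 over all tested genes, and 34 of the 41 estimates were negative. The range ran from -1.14 in Gins1 to 0.68 in Mki67. In 5 genes (Gins1, Pcna, Ccne2, Mad2l1 and Cenpa) every library with entinostat was below every library without it; 2.32% of tested genes did so. With the mean log2 level of alveolar markers as a covariate, 2 of the 13 still fell, Gins1 and Pcna, and 1.03% of all tested genes fell; the replication and mitosis medians were then -0.21 and -0.21, against 0.04 over all tested genes. Without control 1 these medians were -0.19, -0.22 and 0.05. With upper quartile factors in place of TMM, 11 of the 41 genes fell and 1, Pole, rose, and over all tested genes 632 fell and 1046 rose, in place of 1175 and 674. Leaving out 1 library at a time gave 10 to 14 called genes; 10 of the 13 passed in all 12 such fits, Ccne2 in 11, Mcm2 in 7 and Ccnb2 in 0, and without combination 1 the replication count was 3. Of the 10 genes that fell and have a promoter entry, 1 held an E2F word, 7 a CHR word and 8 CCAAT. Of the 22 others with an entry 12, 8 and 17 did. All 8 mitosis genes that fell are among the 10, but of the replication genes only Mcm2 and Pcna are. Gins1, Gins2 and Ccne2 have no entry, so these shares cannot be told apart from the difference between the 2 sets.

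**Figure D2:**
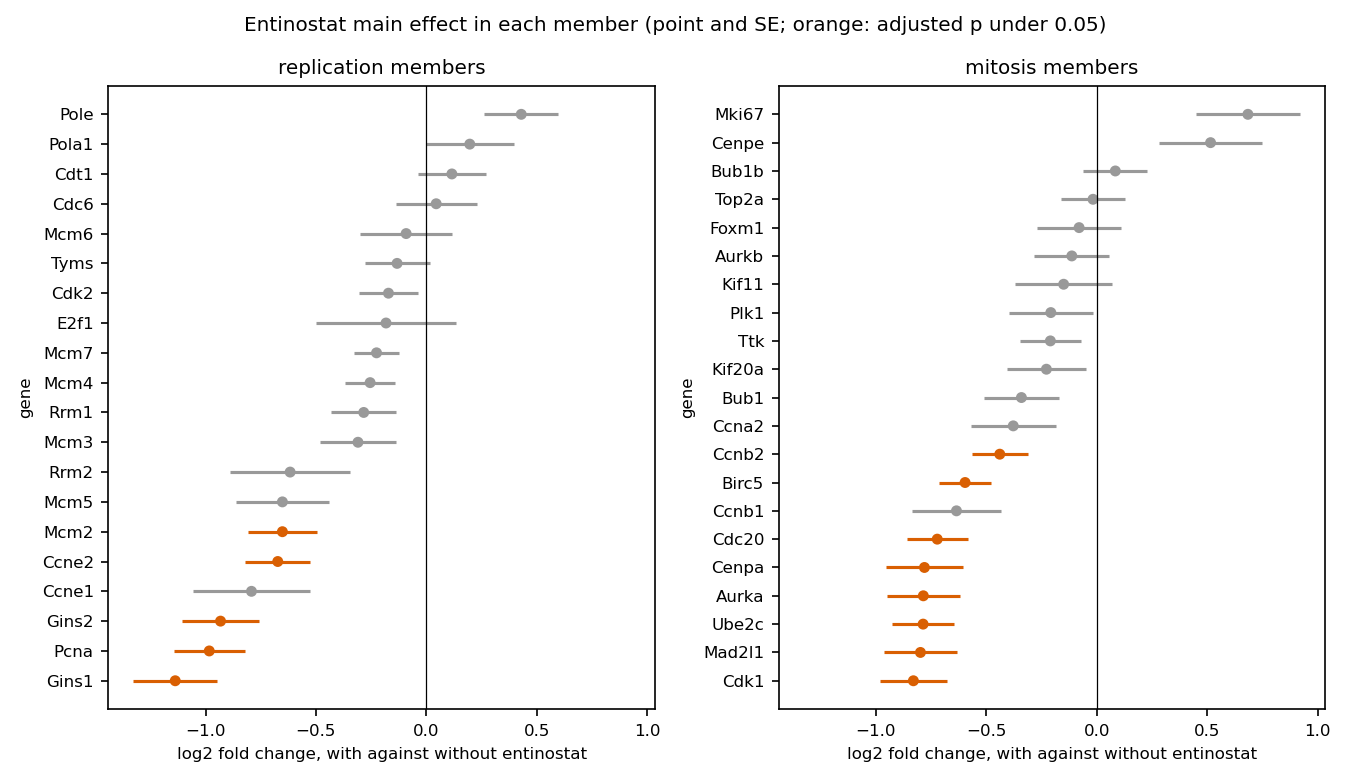
Log2 fold change with against without entinostat (x axis, point and SE) for the 20 replication genes and the 21 mitosis genes (y axis), orange where the adjusted p was under 0.05. The 13 orange genes all lie below 0, with Gins1 (-1.14) farthest, and Mki67 (0.68) lies farthest above it.

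In origin licensing 1 of 8 genes fell, where 6.74% of all tested genes did. A count of 1 in so few genes does not set the section apart from that share. The helicase subunit Mcm2 stood at 214, 228 and 180.0 CPM in the control libraries, 193, 157 and 111 with anti-PD-1, 101, 131 and 141 with entinostat and 113, 109.9 and 89.5 with the combination. The libraries with and without entinostat overlapped only through 1 anti-PD-1 library, and the gene fell with entinostat (log2 fold change -0.65, SE 0.16, adjusted p = 0.0267). The 5 other subunits did not pass. Mcm5 stood at 287, 158 and 134 CPM in the control libraries, 106, 101 and 157 with anti-PD-1, 135, 103 and 81.2 with entinostat and 94.0, 93.0 and 80.9 with the combination, and its main effect missed the threshold (log2 fold change -0.65, SE 0.21, adjusted p = 0.0677), with control 1 far above the other controls. Mcm3, Mcm4 and Mcm7 were below all 3 controls in all 9 treated libraries, anti-PD-1 alone included, and their entinostat main effects were -0.31 (adjusted p = 0.256), -0.25 (adjusted p = 0.16) and -0.23 (adjusted p = 0.167). Mcm6, the subunit with the most reads, was at 314 ± 91.0 CPM (SD, n = 6) without and 292 ± 69.2 CPM (SD, n = 6) with entinostat, and the groups overlapped. The loaders Cdt1 and Cdc6, which bring the helicase to origins, had estimates near 0, at 0.11 (adjusted p = 0.651) and 0.04 (adjusted p = 0.893). The main effects over the 6 MCM genes ran from -0.09 (SE 0.21) in Mcm6 to -0.65 in Mcm2 and Mcm5. These genes were not tested against each other.

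At the fork, 3 of 5 genes fell, beside 6.74% of all tested genes, and these had the largest changes of all 41. Gins1, a subunit of the GINS complex that joins the MCM ring to form the active helicase, stood at 68.9, 44.1 and 44.9 CPM in the control libraries, 23.3, 22.5 and 37.8 with anti-PD-1, 19.7, 17.6 and 14.1 with entinostat and 15.6, 20.8 and 16.7 with the combination. All 6 entinostat libraries lay below all 6 others, with anti-PD-1 alone between control and entinostat. The main effect was the largest of the 41 (log2 fold change -1.14, SE 0.19, adjusted p = 0.00905). Its partner Gins2 stood at 82.5, 64.2 and 49.1 CPM in the control libraries, 42.7, 28.3 and 38.2 with anti-PD-1, 31.1, 25.2 and 23.5 with entinostat and 25.2, 28.4 and 20.0 with the combination, again with the anti-PD-1 libraries below all controls, and fell (log2 fold change -0.93, SE 0.17, adjusted p = 0.0119). Pcna, the clamp that holds polymerases on DNA, stood at 553, 427 and 419 CPM in the control libraries, 283, 226 and 421 with anti-PD-1, 223, 178 and 200.1 with entinostat and 186, 191 and 176 with the combination. Its mean was 192 ± 17.4 CPM (SD, n = 6) with entinostat and 388 ± 116 CPM (SD, n = 6) without, with no overlap (log2 fold change -0.98, SE 0.16, adjusted p = 0.00807). The catalytic polymerase subunits did not pass the test. Pola1, of the polymerase that starts each strand, had 0.20 (adjusted p = 0.539). Pole, of the leading strand polymerase, had a positive estimate of 0.43 (adjusted p = 0.113); with upper quartile factors in place of TMM, which raise the median of all genes from 0.02 to 0.15, it was 0.57 and passed (adjusted p = 0.0428).

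None of the 3 nucleotide supply genes passed, which in so few genes is no departure from the 6.74% of all tested genes that fell. Ribonucleotide reductase is made of the subunits Rrm1 (-0.28, adjusted p = 0.224) and Rrm2 (-0.62, adjusted p = 0.156), and Rrm2 spread from 90.0 to 271 CPM among the controls alone. Thymidylate synthase, Tyms, stood at 149, 111 and 95.8 CPM in the control libraries, 75.9, 68.6 and 52.8 with anti-PD-1, 83.1, 68.5 and 88.9 with entinostat and 80.4, 73.6 and 88.9 with the combination. Every treated library was below every control, the lowest group mean was that of anti-PD-1 alone, and the entinostat main effect was -0.13 (adjusted p = 0.575). The table also lists Tyms-ps, a pseudogene copy, so reads may be split between them and the Tyms level is uncertain.

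Among the G1/S regulators, 1 of 4 fell, beside 6.74% of all tested genes, and 1 gene does not set the section apart. Cyclin E2, the Cdk2 partner encoded by Ccne2, stood at 227, 259.6 and 266 CPM in the control libraries, 296, 239 and 276 with anti-PD-1, 173, 131 and 193 with entinostat and 123, 192 and 168 with the combination. The 3 anti-PD-1 libraries stood at the level of the controls, with no overlap between the 6 and 6 libraries (log2 fold change -0.67, SE 0.15, adjusted p = 0.0193). Its anti-PD-1 estimate against control was 0.11 (adjusted p = 0.842). Ccne1, which encodes cyclin E1, stood at 114, 42.8 and 38.5 CPM in the control libraries, 63.2, 39.3 and 43.8 with anti-PD-1, 36.1, 29.0 and 30.0 with entinostat and 27.4, 32.3 and 40.5 with the combination, with control 1 apart from every other library. Its main effect did not pass in edgeR (-0.79, SE 0.26, adjusted p = 0.0746). DESeq2 called Ccne1 lower (-0.80, adjusted p = 0.0297), where 11.9% of the genes it tested fell. Ccne1 and Ccne2 were not tested against each other. In edgeR Cdk2 (-0.17, adjusted p = 0.418) did not pass either. The transcription factor E2f1 had -0.18 (adjusted p = 0.729), and its controls ran from 20.2 to 86.9 CPM; without control 1 the estimate turned to 0.15.

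**Figure D3:**
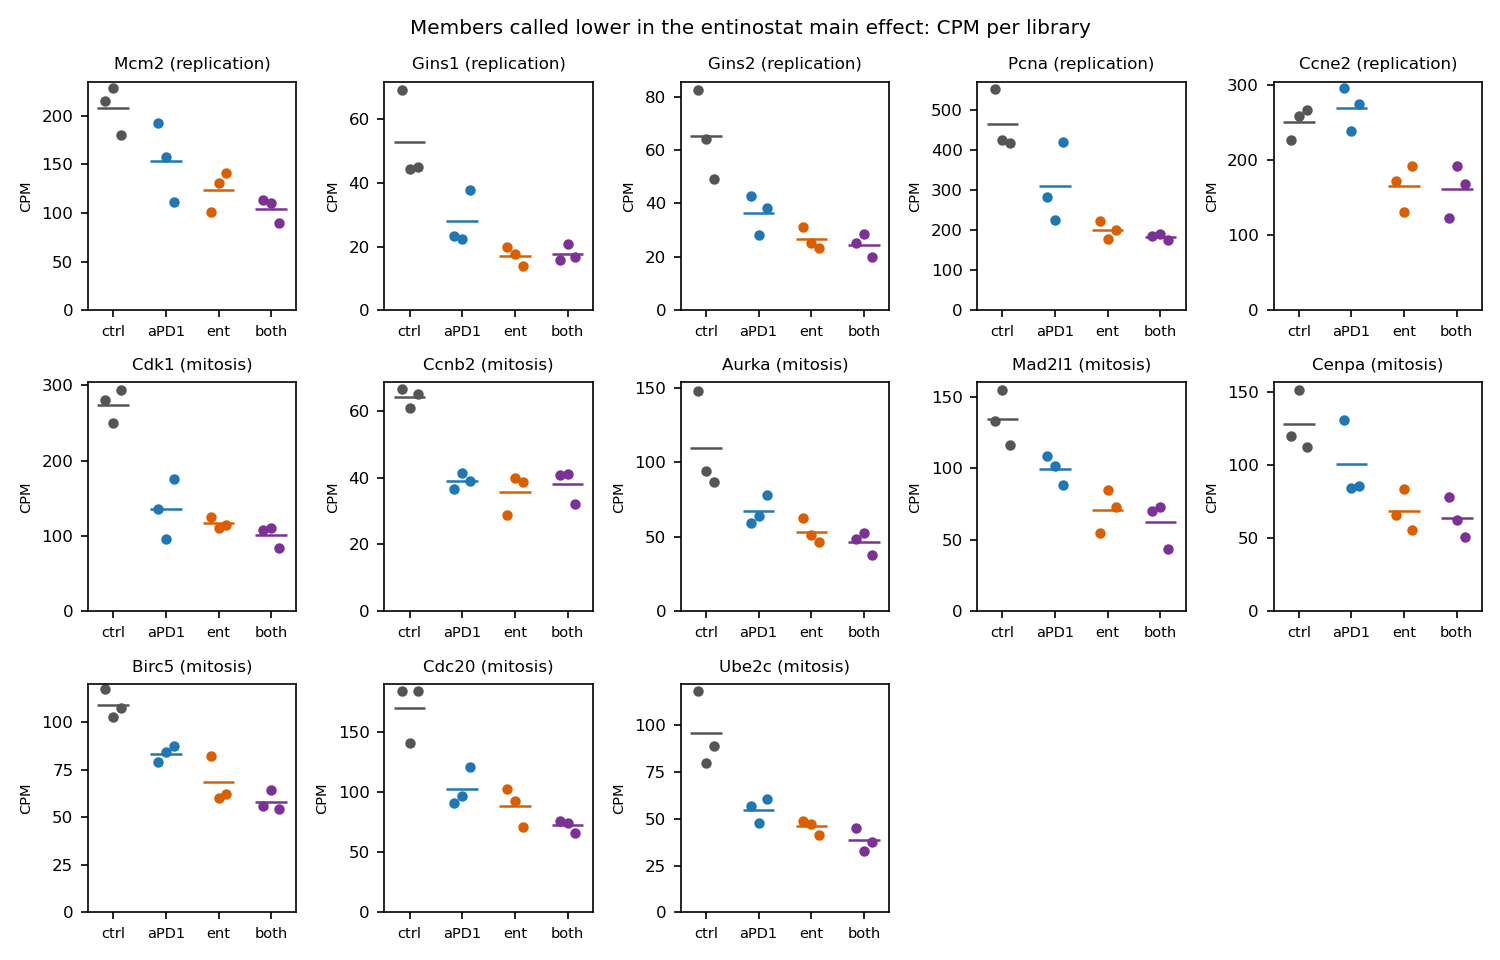
CPM per library (y axis) for the 13 genes that fell with entinostat, by group (x axis: ctrl, control; aPD1, anti-PD-1; ent, entinostat; both, combination), each point 1 library. In Ccne2 the anti-PD-1 points lie at control height (239 to 296 CPM against 227 to 266), whereas in Cdk1 they lie below it (95.4 to 175 against 249.8 to 293).

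Among the mitosis genes, 3 of the 7 genes of mitotic entry fell, beside 6.74% of all tested genes. Cdk1, the kinase that starts mitosis, stood at 279.6, 249.8 and 293 CPM in the control libraries, 135, 95.4 and 175 with anti-PD-1, 125, 110.2 and 114 with entinostat and 108, 110.5 and 83.7 with the combination. All 9 treated libraries lay below the 3 controls, and 2 of 3 anti-PD-1 libraries lay above every library with entinostat. The entinostat main effect was -0.83 (SE 0.15, adjusted p = 0.0119). Of its cyclins, Ccnb2 stood at 66.5, 60.7 and 65.0 CPM in the control libraries, 36.4, 41.5 and 39.0 with anti-PD-1, 28.7, 40.0 and 38.6 with entinostat and 40.8, 41.05 and 32.1 with the combination. Again all treated libraries lay below all controls and the 3 treated groups overlapped. The main effect of Ccnb2 passed narrowly (log2 fold change -0.44, SE 0.13, adjusted p = 0.0484), and did not pass when any 1 of the 12 libraries was left out. Its estimate was -0.84 (adjusted p = 0.028) with entinostat against control. For the combination against anti-PD-1 alone it was -0.04 (adjusted p = 0.954). The other B cyclin gene, Ccnb1, was at 236 ± 64.1 CPM (SD, n = 6) without and 150.3 ± 35.8 CPM (SD, n = 6) with entinostat (-0.63, adjusted p = 0.0643). Cyclin A2, Ccna2, had -0.38 (adjusted p = 0.217). Aurka, the kinase that matures centrosomes, stood at 148, 94.3 and 86.8 CPM in the control libraries, 59.5, 63.9 and 77.8 with anti-PD-1, 62.6, 51.5 and 46.6 with entinostat and 48.7, 52.4 and 37.7 with the combination. All treated libraries were below the lowest control, and 1 entinostat library lay above 1 anti-PD-1 library, the only overlap by entinostat (log2 fold change -0.78, SE 0.17, adjusted p = 0.0175). Plk1, another mitotic kinase, had -0.21 (adjusted p = 0.49), and Foxm1, the transcription factor of this program, had -0.08 (adjusted p = 0.807), with a range of 31.6 to 61.7 CPM over the 12 libraries.

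Checkpoint and exit genes also split, with 3 of 6 falling, beside 6.74% of all tested genes. Mad2l1, which holds the anaphase-promoting complex in check, stood at 133, 155 and 116 CPM in the control libraries, 109, 102 and 88.4 with anti-PD-1, 55.1, 85.0 and 73.1 with entinostat and 70.3, 73.3 and 43.5 with the combination. All libraries with entinostat were below all libraries without (log2 fold change -0.80, SE 0.17, adjusted p = 0.0164). Cdc20, the activator of that complex, stood at 185, 141 and 185 CPM in the control libraries, 90.8, 97.3 and 121 with anti-PD-1, 103, 92.6 and 71.1 with entinostat and 76.3, 74.8 and 66.3 with the combination, with every treated library below every control (log2 fold change -0.72, SE 0.14, adjusted p = 0.013). Ube2c, its ubiquitin-conjugating enzyme, stood at 118, 80.1 and 89.2 CPM in the control libraries, 56.7, 47.7 and 60.5 with anti-PD-1, 49.1, 47.2 and 41.6 with entinostat and 44.99, 32.9 and 37.7 with the combination. Again every treated library was below every control, and the gene fell (log2 fold change -0.79, SE 0.14, adjusted p = 0.011). The checkpoint kinase genes did not pass: Bub1 had -0.34 (adjusted p = 0.211), Ttk -0.21 (adjusted p = 0.334) and the pseudokinase gene Bub1b 0.08 (adjusted p = 0.728).

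Of the 6 genes of the chromosomal passenger complex, kinetochore and spindle motors, 2 fell, beside 6.74% of all tested genes. Birc5, the passenger subunit survivin, stood at 117, 103 and 107 CPM in the control libraries, 78.7, 84.1 and 87.3 with anti-PD-1, 82.2, 60.3 and 62.3 with entinostat and 55.9, 64.5 and 54.2 with the combination. Every treated library was below every control and the main effect was -0.60 (SE 0.12, adjusted p = 0.014). Its partner kinase Aurkb did not pass the test (-0.11, adjusted p = 0.687): it ran from 42.4 to 56.2 CPM (median 50.3) with entinostat and from 35.6 to 89.7 CPM (median 44.6) without. Cenpa, the histone variant that marks centromeres, stood at 119.8, 152 and 113 CPM in the control libraries, 131, 84.5 and 85.8 with anti-PD-1, 66.0, 83.8 and 55.4 with entinostat and 78.0, 62.2 and 51.0 with the combination. The 6 libraries with entinostat were all below the 6 without (log2 fold change -0.78, SE 0.17, adjusted p = 0.0203). The motor genes did not pass, with Kif11 at -0.15 (adjusted p = 0.68), Kif20a at -0.23 (adjusted p = 0.413) and the kinetochore motor Cenpe at a positive 0.51 (adjusted p = 0.17); 1 entinostat library had 182 CPM of Cenpe against 49.8 to 112 in the other 11.

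The chromosome structure genes Mki67 and Top2a, both widely used as markers of proliferation, did not fall. Mki67, which coats mitotic chromosomes and encodes the Ki-67 antigen, stood at 451, 368 and 653 CPM in the control libraries, 573, 718 and 317 with anti-PD-1, 593, 913 and 1006 with entinostat and 1054, 644 and 735 with the combination. The groups overlapped and the values with entinostat were on the higher side (log2 fold change 0.68, SE 0.24, adjusted p = 0.0829). DESeq2 called Mki67 higher at 0.68 (adjusted p = 0.0382), beside 1441 of the 16623 genes it tested. Other genes that missed the threshold in edgeR were called lower by DESeq2, beside 1981 of the genes it tested. These were Mcm5 (-0.66, adjusted p = 0.0286), Ccne1 (-0.80, adjusted p = 0.0297) and Ccnb1 (-0.64, adjusted p = 0.0275). Top2a, which untangles DNA before segregation, had the highest mean log2 CPM of the 41 (9.31, beside 9.30 in Mki67) and stood at 956, 629 and 805 CPM in the control libraries, 488, 592 and 483 with anti-PD-1, 740.3, 621 and 693 with entinostat and 591, 699.8 and 487 with the combination. Its main effect was -0.02 (adjusted p = 0.95), and the libraries with and without entinostat overlapped, while the 3 anti-PD-1 libraries lay below all 3 controls. Per kilobase of transcript, the mean level was 124 CPM in Top2a and 66.5 in Mki67, against 191 in Pcna, the highest of the 41 on that scale.

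The genes that fell had shorter transcripts than the others. Lengths are of the principal GENCODE M21 transcript, the longest where several were marked and the longest of any where none was. The 13 had a median length of 1793 bases (947 to 7557) and the 28 others 3097 bases (1950 to 10061). All 6 of these genes in the shortest length quartile of tested genes fell (Gins1, Pcna, Ccnb2, Cenpa, Birc5 and Ube2c), as did 2 of 11, 3 of 15 and 2 of 9 in the next quartiles. Over all tested genes with a length, the share that fell was also lower in each longer quartile, from 12.3% to 8.22%, 4.59% and 1.99%. Across the 41 genes, which share the same 12 libraries, log2 length and the main effect had Pearson's r 0.60 and Spearman's rho 0.45; over all 16648 tested genes with a length Pearson's r was 0.04. With a per-library length curve as an offset, an alternative chosen after seeing the data, 11 of the 13 still fell and Ccnb2 (-0.32, adjusted p = 0.157) and Birc5 (-0.43, adjusted p = 0.0603) did not. In that fit the positive estimates were smaller, at 0.37 in Mki67, 0.27 in Cenpe and 0.19 in Pole. Cdk1 (4375 bases) and Mad2l1 (7557 bases), long by the transcript chosen, fell by more there, at -0.95 and -1.06. Which transcript the reads came from was not tested, so the place of single genes on the length scale is uncertain. Beyond this offset, the part of transcript length in the result was not tested.

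**Figure D4:**
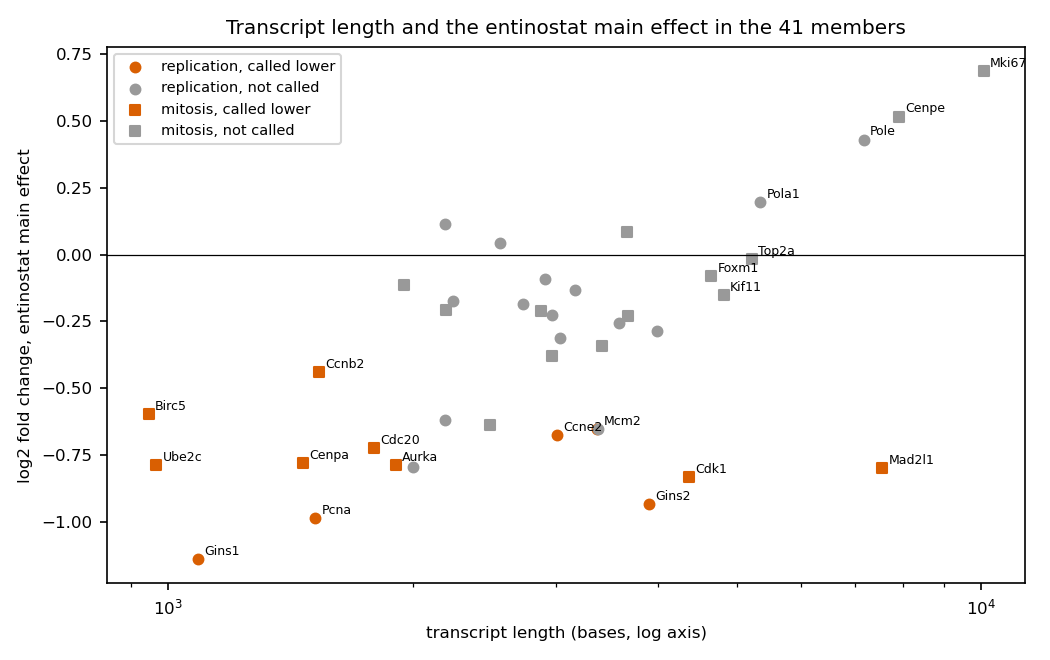
Transcript length (x axis, bases, log axis) against the entinostat main effect (y axis, log2 fold change) for the 41 genes, coloured by set and call. The 6 shortest genes, up to 1531 bases, all fell, whereas Mki67 at 10061 bases has the highest estimate, 0.68.

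The second question was each treatment against control; the 3 comparisons share the same control libraries. With entinostat alone, 10 of 41 genes fell and 0 rose, where 3.98% of all tested genes fell and 1.3% rose. They were 3 replication genes (Gins1, Gins2 and Pcna) and 7 mitosis genes (Cdk1, Ccnb2, Aurka, Mad2l1, Birc5, Cdc20 and Ube2c). Gins1 changed most (log2 fold change -1.62, SE 0.27, adjusted p = 0.0156), then Gins2 (-1.30), Cdk1 (-1.23) and Pcna (-1.22). Every entinostat library lay below every control in 20 of the 41 genes, as in 15.7% of tested genes. The median was -0.57 in the replication genes and -0.49 in the mitosis genes, against 0 over all tested genes. This count changed when single libraries were left out: it was 2 without control 1, 5 without entinostat 1, and 0 without entinostat 2 or without entinostat 3, where 1.09%, 0.816%, 0.201% and 0.0056% of all tested genes fell. The replication and mitosis medians without control 1 were -0.36 and -0.29. They were -0.57 and -0.60 without entinostat 1, -0.48 and -0.49 without entinostat 2, and -0.64 and -0.47 without entinostat 3. The count was also 5 with upper quartile factors (1.35% of all genes; 236 fell and 325 rose, in place of 693 and 226), the length offset (2.01%) or the replicate number as a block (1.45%), and 0 with the alveolar covariate (0 of all genes). The same-numbered control and entinostat libraries had correlated deviations of 0.176, 0.166 and 0.195, and under the block Ccnb2, Aurka, Mad2l1, Birc5 and Cdc20 were lost.

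With anti-PD-1 alone, 0 of 41 genes passed edgeR's quasi-likelihood test, where 0.00574% of all tested genes fell, a single gene. At an unadjusted p under 0.05, 19 of the 41 were lower (10.2% of tested genes) and 0 higher (5.2%), and DESeq2 called 8 of the 41 lower, namely Mcm7, Gins1, Gins2, Tyms, Cdk1, Ccnb2, Cdc20 and Ube2c, beside 3.42% of the genes it tested. In 17 genes, 7 of replication and 10 of mitosis, all 3 anti-PD-1 libraries were below all 3 controls, as in 10.7% of tested genes. The medians of -0.43 and -0.42 for replication and mitosis genes stood against 0 over all tested genes. Cdk1 had an estimate of -1.02 (adjusted p = 0.11), Gins1 -0.92 (adjusted p = 0.16), Tyms -0.85 (adjusted p = 0.127) and Ube2c -0.80 (adjusted p = 0.126). In this group the structural RNAs took 20.5% to 36.4% of counts, the highest of the 4 groups.

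With the combination, 14 of 41 genes fell and 0 rose, where 7.78% of all tested genes fell and 3.88% rose. The 5 replication genes were Mcm2, Mcm5, Gins1, Gins2 and Pcna, and the 9 mitosis genes Cdk1, Ccnb2, Aurka, Bub1, Mad2l1, Cenpa, Birc5, Cdc20 and Ube2c. Gins1 (-1.57, adjusted p = 0.00962), Cdk1 (-1.45, adjusted p = 0.0079), Gins2 (-1.41, adjusted p = 0.00982), Pcna (-1.34, adjusted p = 0.00932) and Ube2c (-1.31, adjusted p = 0.0079) had the largest changes. Of the 14, 10 had also passed with entinostat alone. The other 4, Mcm2 (adjusted p = 0.0199), Mcm5 (-1.11, adjusted p = 0.0371), Cenpa (-1.01, adjusted p = 0.0268) and the checkpoint kinase gene Bub1 (-0.93, adjusted p = 0.0341), passed with the combination and in neither other treatment against control, and none of them passed in the combination against entinostat or against anti-PD-1. Bub1 stood at 162, 84.0 and 107 CPM in the control libraries, 74.3, 75.5 and 56.2 with anti-PD-1, 89.5, 74.4 and 80.9 with entinostat and 71.6, 63.0 and 50.7 with the combination, so that the anti-PD-1 libraries were also below all controls. The medians were -0.54 and -0.75 for replication and mitosis genes, against 0.05 over all tested genes, and in 22 genes every combination library lay below every control, as in 16.7% of tested genes. The count was 6 without combination 1 and 6 without combination 3, where 1.2% and 1.41% of all tested genes fell, and 8 with the alveolar covariate, where 1.38% fell. Without control 1 the replication median was -0.34. With upper quartile factors 611 of all tested genes fell and 1100 rose, in place of 1356 and 677.

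Across the 3 treatments, 13 of the 41 genes (6 of replication and 7 of mitosis) had all 9 treated libraries below all 3 controls, as did 6.55% of tested genes. These were Mcm3, Mcm4, Mcm7, Gins1, Gins2, Tyms, Cdk1, Ccnb2, Aurka, Birc5, Cdc20, Ube2c and Mad2l1. Of the 13 that fell in the main effect, 9 were among them; the other 4 (Mcm2, Pcna, Ccne2 and Cenpa) had an anti-PD-1 library within or above the range of the controls. In 15 genes a call was made in at least 1 comparison and in 26 in none.

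The third question was whether the treatments differed among themselves. The combination against anti-PD-1 alone, which adds entinostat, gave 0 of 41 called genes and 0 of all tested genes by edgeR's quasi-likelihood test. At an unadjusted p under 0.05, 11 of the 41 were lower (6.38% of tested genes). DESeq2 called 1 of the 41, Ccne2 (-0.76, adjusted p = 0.0404), where it called 253 lower and 171 higher of 16623 genes. A single call among 41 does not set these genes apart from that share. Pcna had -0.75 (adjusted p = 0.258) and Ccne2 -0.74 (adjusted p = 0.225) in edgeR. The combination against entinostat alone, which adds the antibody, gave 0 called genes by edgeR's quasi-likelihood test and 0 by DESeq2, with 1 lower at an unadjusted p under 0.05 (0.603% of tested genes). That gene was Ccna2, at -0.61 (adjusted p = 1), whose combination libraries stood at 137, 142 and 95.5 CPM against 231, 172 and 168 with entinostat alone. The medians were -0.11 and -0.22 in the first of these comparisons and -0.08 and -0.21 in the second, for replication and mitosis genes.

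The interaction asks whether the entinostat effect differed with and without the antibody. By edgeR's quasi-likelihood test it passed in 0 of the 41 genes and 0 of all tested genes, and 7 of the 41 had a positive interaction at an unadjusted p under 0.05 (3.82% of tested genes), namely Mcm7, Gins1, Tyms, Cdk2, Cdk1, Ccnb2 and Aurkb. A positive value means that the fall with both agents was smaller than the sum of the separate falls. The smallest unadjusted p of the 41 was in Ccnb2, with an estimate of 0.805 (unadjusted p = 0.00842, adjusted p = 0.722). In Cdk1 the estimate was 0.81 (unadjusted p = 0.0214, adjusted p = 0.765). Over all 41 genes, 7 estimates were negative. The medians were 0.39 for replication and 0.25 for mitosis genes against 0.07 over all tested genes, and the first was 0.17 without control 1 and the second 0.45 without combination 3.

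Averaged over each set, log2 CPM gave 1 value per library. The replication set stood at 7.30, 6.69 and 6.76 in the controls, 6.55, 6.51 and 6.44 with anti-PD-1, 6.42, 6.32 and 6.45 with entinostat and 6.31, 6.39 and 6.31 with the combination. The mitosis set stood at 7.20, 6.82 and 7.05 in the controls, 6.58, 6.68 and 6.45 with anti-PD-1, 6.62, 6.61 and 6.51 with entinostat and 6.53, 6.44 and 6.19 with the combination. In both sets all 9 treated libraries were below all 3 controls, and control 1 was the highest of the 12. Group means were 6.92 ± 0.33 for replication and 7.03 ± 0.20 for mitosis in controls (SD, n = 3) and 6.34 ± 0.05 and 6.38 ± 0.18 with the combination. In the replication sections the share that fell with entinostat ran from 3 of 5 fork genes to 0 of 3 nucleotide genes. In the mitosis sections it ran from 3 of 6 checkpoint and exit genes to 0 of 2 chromosome structure genes. Shares over so few genes spread more than shares over a whole set, so this spread cannot be compared with that of the 2 sets. These counts describe the sets and sections, and no test of one against another was made.

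**Figure D5:**
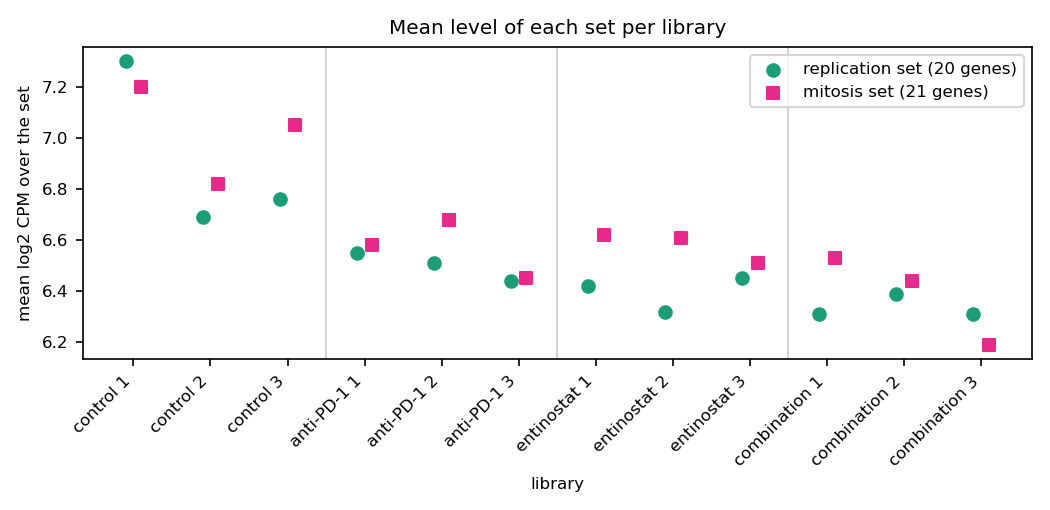
Mean log2 CPM over the 20 replication genes and over the 21 mitosis genes (y axis) in each of the 12 libraries (x axis). Both lie highest in control 1 (7.30 and 7.20) and lower in all 9 treated libraries than in any control.

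Wider lists gave the other genes of the same pathways. Of 50 other replication genes 15 fell with entinostat and 0 rose (median -0.34), beside 6.74% of all tested genes that fell. The smallest adjusted p-values were in Dut, which clears dUTP (-0.86, adjusted p = 0.0126, from 337 to 184 CPM), the clamp loader subunit Rfc4 (-0.60, adjusted p = 0.0142), the primase subunit Prim1 (-0.75, adjusted p = 0.0183) and the fork protection factor Tipin (-0.78, adjusted p = 0.02). Further GINS, RPA and polymerase epsilon subunits were among the 15, namely Gins4 (-0.71), Rpa2 (-0.59), Rpa3 (-0.78), Pole3 (-0.78) and Pole4 (-0.87). Of 55 other mitosis genes 11 fell and 0 rose (median -0.30), led by the kinetochore genes Spc25 (-0.89, adjusted p = 0.00862, from 63.9 to 34.1 CPM) and Zwint (-0.66, adjusted p = 0.0111), the checkpoint gene Bub3 (-0.67, adjusted p = 0.0131) and the spindle gene Nusap1 (-0.59, adjusted p = 0.0183). Transcripts had 1950, 1228, 1583 and 1841 bases in Dut, Rfc4, Prim1 and Tipin. In Spc25, Zwint, Bub3 and Nusap1 they had 1194, 2676, 2218 and 2960. The part of transcript length in these lists was not tested. With anti-PD-1 alone 0 genes of either list passed edgeR's quasi-likelihood test. At an unadjusted p under 0.05, 22 of 50 and 23 of 55 were lower, beside 10.2% of all tested genes.

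Among inhibitors of the cell cycle, 5 of 15 tested also fell with entinostat and 0 rose (median -0.45). Over all tested genes 6.74% fell and 3.87% rose (median 0.02). Cdkn1b, which encodes the CDK inhibitor p27, fell from 175 to 83.5 CPM (-1.04, SE 0.15, adjusted p = 0.00662), and Ccng2, a cyclin that restrains division, from 49.1 to 24.4 CPM (-0.95, adjusted p = 0.00716). Btg1, an antiproliferative gene, fell as well (-0.57, adjusted p = 0.0285). Cdkn2c, which encodes p18, fell from a mean of 70.4 ± 56.7 CPM to 12.5 ± 5.66 (SD, n = 6 each; log2 fold change -2.46, SE 0.61, adjusted p = 0.0289), with a wide spread in the libraries without entinostat. The fifth was Fzr1, an activator of the anaphase-promoting complex in G1 (-0.45, adjusted p = 0.045).

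Markers of the tumour cells and of other cell types also differed between the groups. Of the 14 neuroendocrine markers, 4 fell with entinostat and 0 rose (median -0.83), namely Scg5 (-1.88), Calca (-2.75), Scg2 (-2.39) and Uchl1 (-1.15). Over all tested genes 6.74% fell and 3.87% rose (median 0.02). The summed level of 12 alveolar markers was 3.93 to 422 CPM in controls, 14.8 to 442 with anti-PD-1, 119 to 639 with entinostat and 39.5 to 572 with the combination, with 0 called (median 1.12; at least 1 library had no count of Sftpa1, Sftpd, Slc34a2 or Cldn18). The 7 fibroblast markers summed to 282 to 364 CPM in controls, 155 to 815 with anti-PD-1, 619 to 776 with entinostat and 528 to 1450 with the combination, and 1, Pdgfra, rose (1.18, adjusted p = 0.043). The 10 macrophage markers summed to 307 to 658 CPM in controls, 373 to 586, 286 to 925 and 249 to 1240 CPM in the same order of groups, with 0 called. The 8 T cell markers summed to 2.35 to 13.5 CPM over the 12 libraries, with Cd3e without a count in 5. The 6 endothelial markers summed to 32.7 to 57.1 CPM in controls, 46.8 to 73.4 with anti-PD-1, 36.8 to 107 with entinostat and 44.9 to 120 with the combination; with them, airway, B cell and erythroid markers had 0 called. The alveolar level was entered as a covariate above; the part of the neuroendocrine, fibroblast, macrophage and endothelial levels in the result was not tested.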

How the data were processed

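RNA of flash-frozen tumours was made into poly(A) libraries with a NEBNext Ultra II kit, per the labels' protocols. The submitters' processing notes name the aligner STAR (2.5.4a), read trimming by Trimmomatic (0.36) and by Trim Galore, build mm9, and R (3.5.1) with DESeq2 (1.22.2). The authors deposited a table of raw counts with 1 column for each of the 12 libraries. No source used here states how strand was treated, so reads of overlapping genes cannot be told apart. Between 65.3% and 77.2% of counts from 1 to 20 were even, as when both mates of a pair are counted, so depth in fragments may be lower; the halved counts were one of the alternatives.

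From these counts, R 4.3.3 with edgeR 4.0.16 (limma 3.58.1) fitted 1 mean per group over all 12 libraries, with TMM factors, filterByExpr and robust quasi-likelihood estimation, which left 17426 of 22738 genes. A total of 7 comparisons were tested, each with Benjamini-Hochberg adjustment at 0.05; SE is the log2 fold change divided by the root of F. Levels are CPM, and log2 CPM used a prior count of 2. An exact permutation test of 3 against 3 libraries cannot go below p = 0.1, so none is given for those comparisons. That limit does not hold for the main effect, with 6 libraries against 6, for which no permutation test was run. Libraries of 1 group differed beyond counting noise (chi-square per degree of freedom at least 53.4), so none was a repeat deposit of another in its group. This check covered pairs within a group only. Transcript lengths came from GENCODE M21 (95.5% of tested genes had one), and promoters from a RefSeq table of GRCm38.p6 with 32851 windows; the build of the counts, mm9, was not used for coordinates. The edgeR step was tested on simulated data.

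All 41 genes are accounted for, and those called in any comparison are named with values; from each wider list up to 4 called genes with the smallest adjusted p are named. In each set the promoters of the 2 genes with the smallest adjusted p and an entry are printed, plus Mcm6 and Top2a. The 41 genes, the lists, the sections and the tests were chosen with earlier results of these data known. Alternatives were upper quartile and RLE factors, DESeq2 1.42.0, no filter, a replicate block, halved counts, removal of 3 structural RNAs, an alveolar marker covariate, a length offset, stricter motif words and each library left out.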

Additional observations from a re-analysis of the deposited data

How the results depend on the processing

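The fall of the 13 genes with entinostat was recomputed under 9 alternatives and without each of the 12 libraries. The count of genes that fell was 10 to 14 without 1 library (replication 3 to 7), where 2.21% to 7.45% of all tested genes fell. It was 11 to 16 in 8 of the 9 alternatives, where 3.63% to 11.9% fell. DESeq2 gave 1 rise (Mki67), beside 1441 of 16623 genes, and upper quartile factors 1 (Pole), beside 1046 of 17426. With the alveolar marker covariate the count was 2, with 2 of replication and 0 of mitosis, where 1.03% of all tested genes fell. The causes were not tested. In entinostat alone against control the count was 5 with upper quartile factors, the replicate block or the length offset (mitosis 2 in each). In these fits 1.35%, 1.45% and 2.01% of all tested genes fell. With the covariate it was 0 (0 and 0, and 0 of all genes). DESeq2 called 5 replication genes, where 9.59% of the genes it tested fell. Without 1 library the count was 0 to 11 (replication 0 to 4, mitosis 0 to 7), where 0.0056% to 4.4% of all tested genes fell. The replication median of this comparison was -0.35 with upper quartile factors, -0.38 with the covariate and -0.64 to -0.36 without 1 library. The mitosis median was -0.26, -0.31 and -0.72 to -0.29 in the same order. Relative to the median of all genes, upper quartile factors gave -0.55 and -0.46, against -0.57 and -0.49 with TMM.

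In anti-PD-1 against control DESeq2 called 8 genes (4 and 4), where 3.42% of the genes it tested fell. The mitosis median was -0.24 with upper quartile factors and -0.63 to -0.42 without 1 library. Relative to the median of all genes it was -0.41 with upper quartile factors, against -0.42 with TMM. In the combination against control the covariate left 8 (3 and 5), where 1.38% of all tested genes fell. DESeq2 called 9 replication genes, where 12.4% of the genes it tested fell. Upper quartile factors gave medians of -0.31 and -0.52, which relative to all genes are -0.59 and -0.80, as with TMM. Without 1 library the count was 6 to 17 (replication 3 to 7, mitosis 3 to 10), where 1.2% to 7.91% of all tested genes fell. The replication median was then -0.62 to -0.34. In the combination against anti-PD-1 alone DESeq2 called 1 gene, of replication (1), where 1.52% of the genes it tested fell. The interaction medians without 1 library were 0.17 to 0.52 for replication and 0.19 to 0.45 for mitosis. Upper quartile factors moved the median of all genes from 0.02 to 0.15; relative to that shift the replication and mitosis medians were -0.29 and -0.35, against -0.29 and -0.36 with TMM. They also put the control mean of the mitosis set at 6.87.

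Estimates near 0 changed sign: with upper quartile factors Mcm6 0.04, Tyms 0.01, Foxm1 0.05, Aurkb 0.03 and Top2a 0.12; with the covariate Mcm6 0.05, E2f1 0.35, Aurkb 0 and Top2a 0.02. Without 1 library the ranges were -0.09 to 0.12 in Cdc6, -0.21 to 0.04 in Mcm6, -0.41 to 0.15 in E2f1, -0.20 to 0.05 in Foxm1 and -0.09 to 0.06 in Top2a. With stricter words E2F was in 5.88% of mitosis windows and 2.26% of all windows, and CHR in 17.9% of all windows.

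The labels tie same-numbered libraries of different groups by nothing but that number. Correlations of their deviations from group means ran from -0.292 to 0.226, with 8 of 18 pairs over 0.1, among them all 3 pairs of control and entinostat. Whether any of them were paired was not tested and cannot be told from the labels. With the replicate block 11 of the 41 genes were called in the entinostat main effect and 12 in the combination against control. In these fits 3.64% and 4.37% of all tested genes fell. The lowest count of any of these genes in a library was 460.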
